A study of Mus musculus with 2 samples.

Results

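The Notch receptors and their ligands were followed through a comparison of cultured mouse oligodendrocytes, the myelin-forming cells of the brain, with cultured astrocytes. The set held 10 of the 27670 genes named on the array: the receptors Notch1, Notch2, Notch3 and Notch4, the ligands Jag1, Jag2, Dll1, Dll3 and Dll4, and Lfng, an enzyme that adds sugar to the receptors. Members were taken by the gene name of each non-control probe, without regard to signal, and had 14 probes on 32 spots. Both groups were untreated primary cultures of strain C57BL/6J. No allele, agent or age of the animals is given in the labels. Oligodendrocytes were shaken off mixed glial cultures after 10 to 14 days. Astrocytes were what remained after a further 7 to 10 days in medium with 10% fetal calf serum, once microglia had been shaken off, so that the cell types also differed in time in culture and in how they were harvested. Each of 2 arrays held total RNA of both cell types, with oligodendrocytes in Cy5 on replicate 1 and in Cy3 on replicate 4. The series text speaks of 3 samples per cell type, and the others were not analysed here. Whether replicates 1 and 4 are separate cultures is not given in the labels. The p-values therefore cover the spread of these arrays alone, and that spread may be technical.

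Notch receptors are single-pass membrane proteins that bind Jagged and Delta-like ligands on a neighbouring cell. Binding lets ADAM proteases and then gamma-secretase cut the receptor, and the freed intracellular part enters the nucleus, joins the DNA-binding protein Rbpj and turns on genes of the Hes and Hey families. In the brain the pathway is known for keeping neural precursors undifferentiated, for favouring astrocytes over neurons and for holding back the maturation of oligodendrocyte precursors.

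Across the set, receptor mRNA was higher in astrocytes and the called ligands were higher in oligodendrocytes. All 4 receptors and Lfng were called higher in astrocytes, Jag1, Dll1 and Dll3 were called higher in oligodendrocytes, and Jag2 and Dll4 were not called (limma, Benjamini-Hochberg adjusted p under 0.05). Calls were common on these arrays. Of 21895 genes tested, 41.2% were called, 18.5% as higher in oligodendrocytes and 22.6% as higher in astrocytes, beside 3 and 5 of the 10 members. The median log2 ratio of oligodendrocyte over astrocyte was -0.52 over the members and -0.0040 over all genes tested. A difference of at least 2-fold on both arrays was reached by Dll3 in oligodendrocytes and by Notch2, Notch3 and Notch4 in astrocytes, and by 5.1% and 7.34% of all genes tested in these directions. The ratio had the same sign on both arrays for all 10 members.

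**Figure D1:**
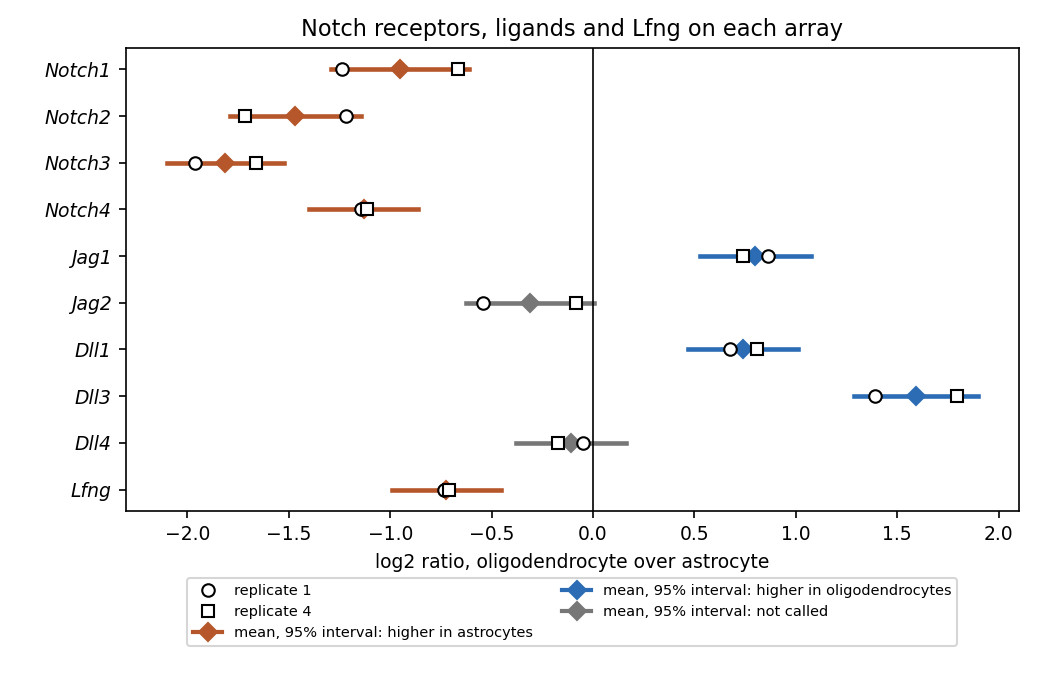
The log2 ratio of oligodendrocyte over astrocyte is plotted for each member on each array, with the mean of the 2 arrays and its 95% interval. The receptors and Lfng lie below 0, down to a mean of -1.81 for Notch3, and Jag1, Dll1 and Dll3 lie above 0, up to 1.59 for Dll3.

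Promoter windows of the members were searched for short motifs, which were chosen with results known. The hexamer CAGCTG, an E-box of the form bound by proneural basic helix-loop-helix factors, lay in windows of Jag1, Dll3 and 1 of the 2 Dll1 starts, and also in that of Lfng, which was called in the other direction. Windows ran from 250 bases before to 50 after each annotated start (RefSeq, GRCm38.p6), and 11 windows represented the 10 members because Dll1 has 2 starts. CAGCTG, which reads the same on both strands, was in 4 of the 11 windows and in 16.3% of all 32851 windows of that length. The Rbpj core TGGGAA, searched on both strands, was in 25.6% of all windows and, among the members, in the window of Lfng alone. A match is a description of letters. The 250 bases before the start are shown 5′ to 3′ on the gene's strand for the 4 genes, with CAGCTG and the Rbpj core of either strand in capitals.
Jag1 (chr2:137116521-137116770, minus strand): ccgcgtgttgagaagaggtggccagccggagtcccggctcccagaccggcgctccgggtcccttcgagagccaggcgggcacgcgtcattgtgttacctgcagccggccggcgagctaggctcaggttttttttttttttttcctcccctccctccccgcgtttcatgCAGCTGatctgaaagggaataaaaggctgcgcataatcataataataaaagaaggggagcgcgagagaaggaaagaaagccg
Dll1 (chr17:15376933-15377182, minus strand): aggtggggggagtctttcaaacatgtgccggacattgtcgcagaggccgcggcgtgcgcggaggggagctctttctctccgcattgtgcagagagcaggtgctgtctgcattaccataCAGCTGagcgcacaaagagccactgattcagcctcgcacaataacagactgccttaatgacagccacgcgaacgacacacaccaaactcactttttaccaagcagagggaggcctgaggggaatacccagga
Dll3 (chr7:28301786-28302035, minus strand): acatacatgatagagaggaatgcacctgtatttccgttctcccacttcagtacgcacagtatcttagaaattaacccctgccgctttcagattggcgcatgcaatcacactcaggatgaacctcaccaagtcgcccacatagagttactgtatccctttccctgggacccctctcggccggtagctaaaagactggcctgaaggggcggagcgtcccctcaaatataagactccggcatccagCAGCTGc
Lfng (chr5:140607091-140607340, plus strand): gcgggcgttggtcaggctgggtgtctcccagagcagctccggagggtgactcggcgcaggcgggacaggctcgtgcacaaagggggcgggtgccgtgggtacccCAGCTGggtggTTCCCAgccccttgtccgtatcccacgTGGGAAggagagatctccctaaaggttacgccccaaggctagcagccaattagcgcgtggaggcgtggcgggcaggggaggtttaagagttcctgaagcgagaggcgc
Counted from the annotated start, the first base of the E-box lay at -82 in Jag1, -132 in Dll1 and -7 in Dll3. For Dll1 this is the start whose upstream bases are shown, and the window of its other start held no match. The window of Lfng was the richest in matches. It held the E-box at -146 and again at position 2 past the start, and the Rbpj core at -135 on the minus strand and at -108 on the plus strand. The E-box form of Hes and Hey proteins, with the letters CACGTG, began at -112 and overlapped the second of these cores. This form was in 7.15% of all windows.

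Notch3, a receptor best known from the mural cells of vessels and also present in glial precursors, had the largest ratio of the set. Its level (log2 intensity after normalisation between channels) was 8.78 and 8.86 in oligodendrocytes and 10.75 and 10.52 in astrocytes, on replicates 1 and 4. Both astrocyte levels lay above both oligodendrocyte levels. Such a lack of overlap held for every member, also for Jag2 and Dll4, which were not called. Its share over all genes was not counted, so it does not set members apart. The log2 ratio was -1.96 and -1.66 (mean -1.81 ± 0.21, SD, n = 2 arrays), which is 3.51-fold higher in astrocytes (adjusted p = 2.35e-06). Of all genes tested, 5.0% had a larger ratio in either direction.

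Notch2, a receptor with broad expression, was measured by probes that gave unlike ratios, described further on. Its brightest probe read 11.003 and 10.93 in oligodendrocytes and 12.22 and 12.65 in astrocytes, with no overlap. The log2 ratio was -1.22 and -1.71 (mean -1.47 ± 0.35, SD, n = 2), or 2.76-fold higher in astrocytes (adjusted p = 2.17e-05).

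Notch4, a receptor known mainly from endothelium, was dim, and its arrays gave nearly the same ratio. Levels were 7.06 and 7.26 in oligodendrocytes and 8.21 and 8.38 in astrocytes, again with no overlap. The log2 ratio was -1.15 and -1.12 (mean -1.13 ± 0.021, SD, n = 2), or 2.19-fold higher in astrocytes (adjusted p = 3.66e-05). The mean was -1.44 at an offset of 10 in place of 50, and -1.72 with the scanner software's own log ratio, which also replaces the dye normalisation.

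Notch1, the receptor most studied in oligodendrocyte precursors, had the largest SD between arrays of the members' representing probes. Levels were 10.49 and 10.57 in oligodendrocytes and 11.73 and 11.23 in astrocytes, without overlap. The log2 ratio was -1.24 on replicate 1 and -0.66 on replicate 4 (mean -0.95 ± 0.40, SD, n = 2), or 1.93-fold higher in astrocytes (adjusted p = 0.000613). Only 6.17% of all genes tested had a larger SD between the arrays. The probe was printed on 10 spots, whose ratios ran from -1.28 to -1.19 on replicate 1 and from -0.71 to -0.58 on replicate 4. The spots of an array thus lay close together, and the difference between arrays was larger than the spread within either. The call was lost when each array was centred on its median without loess (-1.06, adjusted p = 0.0566), and over the 15 alternatives the adjusted p ran from 1.34e-07 to 0.0566.

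**Figure D2:**
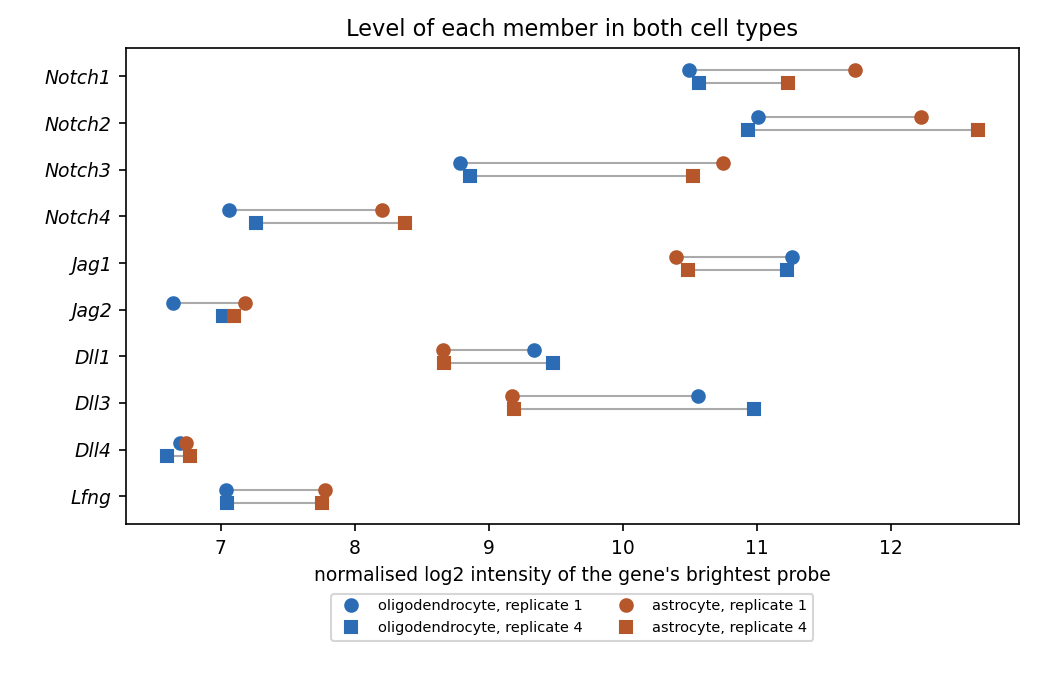
Normalised log2 intensity of each member's representing probe is plotted in oligodendrocytes and astrocytes on each array, joined within an array. Astrocyte points lie above oligodendrocyte points for the 4 receptors and Lfng on both arrays, and below them for Jag1, Dll1 and Dll3; levels of different genes are not comparable.

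Among the ligands, Dll3 had the largest ratio. Dll3 is a divergent Delta-like protein known for acting inside the cell and for damping Notch signalling in the same cell. Its level was 10.56 and 10.98 in oligodendrocytes and 9.17 and 9.18 in astrocytes. Every oligodendrocyte reading exceeded every astrocyte reading. Its log2 ratio was 1.39 and 1.79 (mean 1.59 ± 0.29, SD, n = 2), or 3.02-fold higher in oligodendrocytes (adjusted p = 8.37e-06), and 6.64% of all genes tested had a larger ratio in either direction.

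Jag1, a ligand that activates Notch from the neighbouring cell, read 11.26 and 11.23 in oligodendrocytes and 10.40 and 10.49 in astrocytes at its brighter probe, without overlap. Its log2 ratio was 0.86 and 0.74 (mean 0.80 ± 0.086, SD, n = 2), or 1.74-fold higher in oligodendrocytes (adjusted p = 0.000429). Dll1, the Delta-like ligand of neural progenitors, differed by a similar amount. Its 10-spot probe read 9.33 and 9.48 in oligodendrocytes and 8.66 and 8.67 in astrocytes, without overlap. For Dll1 the log2 ratio was 0.67 and 0.81 (mean 0.74 ± 0.096, SD, n = 2), or 1.67-fold higher in oligodendrocytes (adjusted p = 0.000735). Spots ran from 0.62 to 0.72 on replicate 1 and from 0.69 to 0.91 on replicate 4, so that the arrays overlapped at the level of spots. Both calls were lost with median centring, at 0.69 for Jag1 (adjusted p = 0.364) and 0.67 for Dll1 (adjusted p = 0.385). Over the 15 alternatives the adjusted p ran from 6.32e-06 to 0.472 for Jag1 and from 9.74e-06 to 0.797 for Dll1.

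Jag2 and Dll4 were not called. Jag2, the second Jagged ligand, read 6.64 and 7.02 in oligodendrocytes and 7.18 and 7.10 in astrocytes, with log2 ratios of -0.54 and -0.085. Both astrocyte levels lay above both oligodendrocyte levels, but the mean of -0.31 ± 0.32 (SD, n = 2; adjusted p = 0.108) had a 95% interval from -0.63 to 0.0024. Jag2 was called higher in astrocytes with an offset of 10 (-0.47, adjusted p = 0.0156) and with the scanner software's log ratio (-0.62, adjusted p = 0.0076), and over its 15 alternatives the adjusted p ran from 0.000115 to 0.983. Dll4, the ligand of endothelial tip cells, read 6.70 and 6.60 in oligodendrocytes and 6.74 and 6.77 in astrocytes, also without overlap. Its log2 ratio was -0.047 and -0.17 (mean -0.11 ± 0.089, SD, n = 2, adjusted p = 0.551), with a 95% interval from -0.38 to 0.16. The probes of Jag2 and Dll4 passed the background test in each channel but were dim, and an intensity close to background limits what could be detected.

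Lfng, or lunatic fringe, lengthens the O-fucose sugars of Notch receptors and so shifts which ligands they answer. Its level was 7.04 and 7.05 in oligodendrocytes and 7.78 and 7.76 in astrocytes. The astrocyte levels were higher on both arrays, with log2 ratios of -0.74 and -0.71 (mean -0.72 ± 0.018, SD, n = 2), or 1.65-fold higher in astrocytes (adjusted p = 0.000769). The mean was -0.99 at an offset of 10 and -1.25 from the scanner software, which differs in background subtraction and in dye normalisation. Median centring gave -0.70 and no call (adjusted p = 0.35, within a range from 5.68e-08 to 0.35 over the 15 alternatives).

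Where a member had several probes, they did not always give the same ratio. The clearest case was Notch2. A probe at the 5′ side of the others, chr3:98018506-98018565 in the mm7 build of the array design, read 7.30 and 7.29 in oligodendrocytes and 7.26 and 7.34 in astrocytes, a mean log2 ratio of -0.0081 ± 0.069 (SD, n = 2). A second probe 1638 bases downstream gave -0.84 ± 0.18, and the brightest, 2709 bases downstream, gave -1.47 ± 0.35. The 95% interval of the first, from -0.27 to 0.25, did not overlap that of the second, from -1.11 to -0.57. The order of the 3 means was the same at an offset of 10 and in the scanner software's ratios. With that software the second and the brightest probe came closer, at -1.25 and -1.45, while the first stood at -0.054. The second probe was dim like the first, with mean levels of 7.24 in oligodendrocytes and 8.09 in astrocytes, beside 10.97 and 12.43 at the brightest. The mean of the 3 probes was -0.77 and kept the call.

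At Jag1 a dim probe at chr2:136824059-136824118 (mm7, minus strand), well above background in astrocytes on only 1 array, gave 0.080 ± 0.063. The brighter probe 1509 bases downstream gave the 0.80 described above. The dim probe's ratio rose to 0.15 at an offset of 10 and to 0.55 with the scanner software, where the bright probe gave 0.91. The mean of both probes was 0.44 and kept the call. The 2 probes of Notch1, 58 bases apart, gave similar ratios of -0.86 ± 0.31 and -0.95 ± 0.40. A further probe 1068 bases downstream of that of Lfng is named in the array design only by a transcript identifier, lies outside the set and was chosen after its values were seen. It gave -1.13 ± 0.016, and with the scanner software -1.22 beside -1.25 at the named probe.

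**Figure D3:**
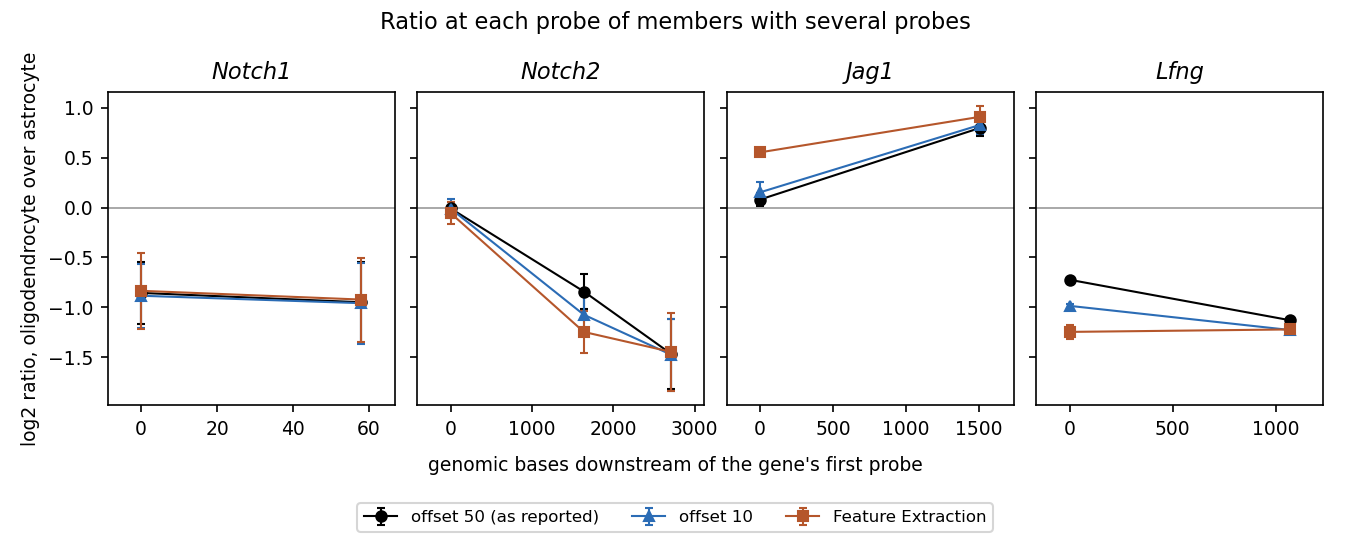
The log2 ratio of oligodendrocyte over astrocyte (mean and SD of 2 arrays) is plotted for each probe of Notch1, Notch2, Jag1 and Lfng against its distance in bases downstream of the gene's first probe, under 3 treatments of background. The Notch2 probes run from -0.0081 to -1.47, while the Lfng probes, unequal at an offset of 50, lie at -1.25 and -1.22 with the scanner software.

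The probe sequences with the upstream position show what those readings rest on. Each is a 60-base oligonucleotide, printed 5′ to 3′ in the sense of the mRNA.
Notch2, 5′ probe: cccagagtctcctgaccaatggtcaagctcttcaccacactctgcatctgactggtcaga
Jag1, dim probe: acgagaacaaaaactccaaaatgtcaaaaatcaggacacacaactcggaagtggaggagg
Lfng, named probe: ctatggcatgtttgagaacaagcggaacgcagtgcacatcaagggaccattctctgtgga
The Notch2 probe reads without a stop codon in 2 of 3 frames, the Jag1 probe in 3 and the Lfng probe in 2. Positions relative to exons were not determined here, since no mm7 annotation was used.

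The other genes of the pathway, taken from lists by role, were called on both sides. Of 54 tested, 15 were called higher in oligodendrocytes, 20 higher in astrocytes, and 19 had no call. The median log2 ratio was -0.13. For comparison, 18.5% of all genes tested were called on the oligodendrocyte side and 22.6% on the astrocyte side, and their median ratio was -0.0040. Whether these counts, or those of the single lists below, differ from the all-gene shares was not tested.

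Of the genes that cut the receptor, 9 were tested. Of these, 4 were called higher in oligodendrocytes, 1 higher in astrocytes and 4 not called. The median was -0.010. The gamma-secretase subunits Aph1c (0.83 ± 0.22), Psen2 (0.75 ± 0.44) and Aph1a (0.69 ± 0.19) had the largest called ratios (SD, n = 2). Among 4 other genes of receptor glycosylation, Mfng, a second fringe enzyme, was called higher in oligodendrocytes at 0.53 ± 0.057, opposite to Lfng. Pofut1, which adds the fucose that fringe enzymes extend, was called higher in astrocytes at -0.37 ± 0.053, and the median was -0.30.

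Of 12 genes of ligand activity and receptor turnover, 7 were called higher in astrocytes and 2 higher in oligodendrocytes, with a median of -0.48. The largest called ratios were those of 3 Deltex ubiquitin ligases, Dtx1 at -1.46 ± 0.36, Dtx4 at -1.28 ± 0.043 and Dtx3 at -1.02 ± 0.084, while the other Deltex gene of the list, Dtx2, was not called (-0.23 ± 0.062). In the nuclear complex, Rbpj itself was not called (0.22 ± 0.29). Of 13 genes, 4 were called higher in astrocytes, with Snw1 at -0.78 ± 0.023, the acetyltransferase Kat2b at -0.70 ± 0.22, the coactivator Maml2 at -0.56 ± 0.19 and the corepressor-associated Cir1 at -0.37 ± 0.074. The corepressor Ctbp1 (0.39 ± 0.013) was called higher in oligodendrocytes, and the median was -0.099.

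Target genes were called in both directions. Of 9, 5 were called higher in astrocytes and 3 higher in oligodendrocytes, with a median of -0.42. Hey1, a repressor induced by Notch, had ratios of -2.41 and -2.37 (mean -2.39 ± 0.028, SD, n = 2, adjusted p = 2.72e-07). Besides Dtx1, which is in 2 lists, the astrocyte side held Nrarp (-0.68 ± 0.21), a feedback inhibitor of Notch, Hes1 (-0.63 ± 0.24) and Hey2 (-0.42 ± 0.024). Their relatives Heyl (1.43 ± 0.23), Hes5 (0.80 ± 0.17) and Bhlhe41 (0.51 ± 0.022) were called higher in oligodendrocytes. Hes7 was not called (-0.086 ± 0.035). Of 8 non-canonical ligands, 3 were called in each direction, led by Cntn1, a cell adhesion protein of axons and glia, at 2.41 ± 0.29, Dlk1 at -2.17 ± 0.041 and Dlk2 at 1.60 ± 0.099.

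**Figure D4:**
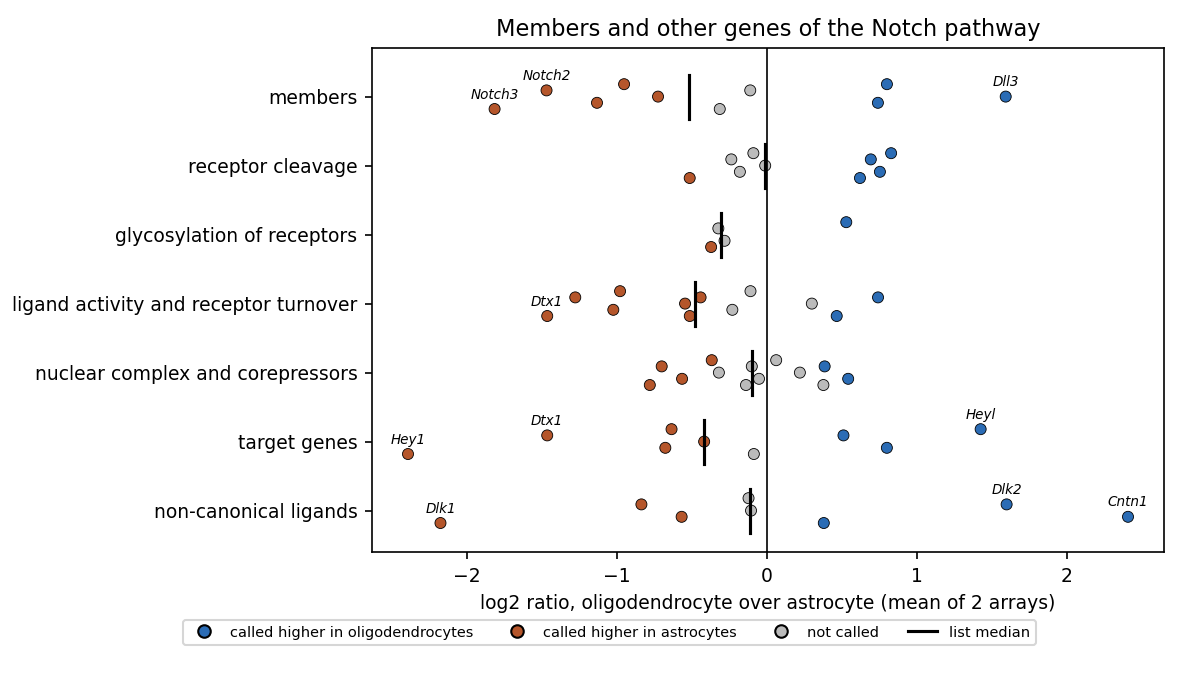
Each point is a gene's mean log2 ratio of oligodendrocyte over astrocyte on 2 arrays, grouped by role in the pathway and coloured by call, with the list median as a bar. Target genes lie on both sides of 0, from -2.39 for Hey1 to 1.43 for Heyl, and Dtx1 appears in 2 lists.

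The labels were checked against defining markers. All 10 oligodendrocyte markers were called higher in oligodendrocytes (median 3.11) and all 10 astrocyte markers higher in astrocytes (median -3.03). Markers of other cells also differed. Microglial markers were called higher in oligodendrocyte cultures for 11 of 12 (median 1.18), fibroblast markers for 7 of 10 with 1 higher in astrocytes (median 1.26), and neuronal and neuroblast markers for 6 of 11 with 2 higher in astrocytes (median 0.61). Markers of ciliated ependymal cells were called higher in astrocyte cultures for 9 of 9 (median -3.31).

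Several members are known from such cells. Beside Notch4 and Dll4, the endothelial markers were called for 3 of 10 in oligodendrocytes and 1 in astrocytes (median 0.015), with Tie1 and Erg not above background. Their summed intensity was 2599 and 2512 in oligodendrocytes and 2715 and 2527 in astrocytes. Flt1 was the brightest of them, at mean levels of 10.04 in oligodendrocytes and 10.17 in astrocytes. The endothelial sum adds markers of opposite direction, Kdr at -0.75 against Emcn at 0.82 and Cdh5 at 0.74, and so does not show an equal content of endothelial cells. Beside Notch3, the mural markers were called for 3 of 8 in oligodendrocytes and 4 in astrocytes (median -0.14), with Abcc9 not above background, and their sums were 30581 and 31816 in oligodendrocytes and 32081 and 29825 in astrocytes. The mural sum adds markers of opposite direction, such as Kcnj8 at -1.88 against Anpep at 3.04 and Cspg4 at 1.98, and so does not show an equal content of mural cells. Beside Dll1 and Dll3, which neuronal precursors express, the neuronal and neuroblast sums were 22380 and 26140 in oligodendrocytes and 7671 and 7215 in astrocytes. The part of other cells in the members' ratios was not tested. In bulk RNA, fewer cells of a type and less RNA per cell cannot be told apart.

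The ratios are set relative to the bulk of genes on each array. The added spike-in RNA, 10 control probes on 320 spots, had median log2 ratios of 0.63 and 0.79 on the arrays. Single spike-ins ran from -2.57 to 3.88 on replicate 1 and from -2.47 to 3.53 on replicate 4, most with opposite signs on the arrays. The spike-in at 3.88 on replicate 1 was that at -2.47 on replicate 4, and that at -2.57 was that at 3.53. These ratios were turned with the cell types, whose dyes were exchanged, so a spike-in ratio tied to dye changes sign between arrays. The spread over spike-ins is therefore not by itself a measure of how uncertain the shift is. Where the signs differed, the positive ratio was the larger in size for each spike-in, and the remaining spike-ins were positive on both arrays. Every spike-in thus had a positive mean over the arrays. Setting the ratios to the mean of both medians, 0.71, lowers every ratio by that amount. The split of all calls was 4061 higher in oligodendrocytes and 4953 in astrocytes as reported, and 1301 and 18269 on the spike-in scale. Among members the split was 3 and 5 as reported and 1 and 7 on the spike-in scale, where Dll3 stayed higher in oligodendrocytes at 0.89, Jag1 (0.094) and Dll1 (0.034) were not called, and Notch1 stood at -1.66.

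**Figure D5:**
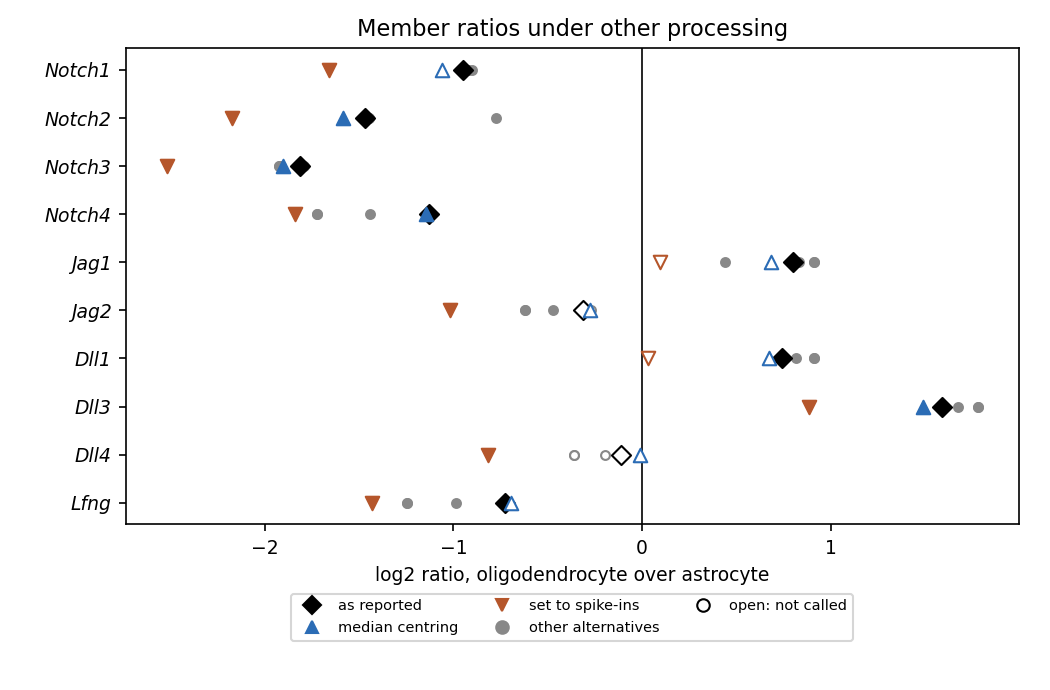
Each member's mean log2 ratio of oligodendrocyte over astrocyte is plotted as reported and under the alternative settings, with open symbols where it was not called. Notch2, Notch3, Notch4 and Dll3 stay called on the same side throughout, while on the spike-in scale Jag1 and Dll1 fall to 0.094 and 0.034.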

How the data were processed

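The headers give 1 slide and 1 scan for both arrays, and neither was tested as a batch. The deposited mean signal and local background intensities are the scanner software's (Agilent Feature Extraction 9.5.3.1, per the file headers), with no normalisation by the authors. In the same files, deposited log10 ratios were background-subtracted and dye-normalised by that software, per the file headers, and the authors' value table differs from them by at most 0.

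In limma 3.58.1 (R 4.3.3) intensities were corrected with normexp (offset 50), normalised by loess (controls at weight 0) and averaged over a probe's spots as oligodendrocyte over astrocyte. A probe entered if both arrays had it well above background in the same cell type, with no outlier-marked spot: 32563 of 41174 did, for 21895 genes, each represented by its brightest probe. Of the gene spots on an array, 76.6% to 83.9% were well above background in a channel, and no member spot was saturated. Across genes, not independent replicates, Pearson's r between the arrays' ratios was 0.930.

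Genes were tested with lmFit and eBayes against 0, with Benjamini-Hochberg adjustment over all genes. With 1 residual degree of freedom a gene, most of the spread is borrowed from other genes, the number of arrays limits the precision, and p-values near the threshold are approximate. Levels are from channels normalised by Aquantile. The procedure was tested on simulated data. With few changed genes the share of false calls exceeded the threshold, so the adjusted p-values can be too small. With as many changed genes as were called here, at their fitted ratios, it did not. Both simulations drew independent noise from the spread that the fit itself estimated. They hold no array or dye error, so they cannot show the share of false calls on these arrays.

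The members, lists, motifs and tests were chosen with earlier results of these data known. All members are named, with the 3 largest called ratios of each pathway list and genes of the nuclear and target lists, some of which are not reported here. Probe positions are those of the array design (mm7). Promoters are RefSeq's (GRCm38.p6).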

Additional observations from a re-analysis of the deposited data

How the results depend on the processing

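Of 150 member values under 15 alternatives, 139 kept their direction and their side of the threshold, and 0 reversed. The blocked channel fit and the authors' table repeat other settings exactly, and without them it was 120 of 130. Notch2, Notch3, Notch4 and Dll3 did so under each of the 15. Single-array values, which carry no test, had the sign of the mean in 20 of 20 cases. That count only restates that both arrays gave each member the same sign. Several settings, such as other filters on dim probes, marked spots kept, and the trend and robust prior, left every member's ratio unchanged. Only the adjusted p could move in those settings. Median centring ended the calls of Notch1 (-1.06), Jag1 (0.69), Dll1 (0.67) and Lfng (-0.70), and left 1085 genes called higher in oligodendrocytes and 1843 in astrocytes, 1 and 3 members, and 3 and 5 other pathway genes. Setting ratios to the spike-ins ended the calls of Jag1 (0.094) and Dll1 (0.034), added Jag2 (-1.02) and Dll4 (-0.82), and gave 1301 and 18269 genes, 1 member in oligodendrocytes, and 3 and 40 other pathway genes. An offset of 10 (-0.47) and the scanner software's log ratio or the identical authors' table (-0.62 each) called Jag2. Beyond the spike-in shift itself, the cause was not tested. The replicate numbers pair the cell types on an array. A fit of separate channels with the replicate block restates the ratio fit (Notch1 -0.95) and adds no evidence. Without the replicate block the ratios are the same by construction, and no member's call changed. Dim probes (Jag2, Dll4, Notch4, Lfng and the dimmer probes of Notch2 and Jag1) are limited by signal over background.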

Other observations

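Other pathway genes also had probes that gave unlike ratios. At Aph1b, a gamma-secretase subunit, the representing probe gave -0.51 and another -0.70, while the last of 3 gave 0.54, positive on both arrays at 0.53 and 0.56. At Dtx4 the representing probe gave -1.28 and another -0.99, while the last of 3 gave 0.027, from -0.22 on replicate 1 to 0.28 on replicate 4. At Dlk1 both probes were negative, at -2.17 and -1.45, and at Cntn1 both were positive, at 2.41 and 2.47. These genes were chosen for mention after their values were seen.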
